A study of Mus musculus with 8 samples.

Results

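The bone morphogenetic protein (BMP) genes examined here were 4 secreted ligands (Bmp2, Bmp4, Bmp6 and Gdf6), 2 secreted antagonists (Grem1 and Nog) and the 4 inhibitor of DNA binding genes (Id1, Id2, Id3 and Id4), which are transcribed in response to BMP signals in many cell types. A gene was taken by every probe that carries its name in the scanner files, which gave 14 probes for 10 genes out of 41174 probes for 27745 gene names. RNA came from mouse embryonic fibroblasts (MEFs), a mixed culture of mesenchymal cells grown out of embryos. Lats2-/- cells lack the Hippo pathway kinase LATS2, and the Lats2+/+ cells came from wild-type littermates. Both genotypes are labelled as strain C57BL/6J, were grown in serum-containing DMEM and received no treatment. Embryo age is not stated in the sources used here. There were 3 litters, numbered 112, 116 and 121, each with a single Lats2-/- and a single Lats2+/+ clone, so that a litter compares one culture with another and n is 3. Every array carried both extracts of a litter in different dyes, with the dyes swapped between arrays of a litter. Litters 112 and 116 had 2 arrays each and litter 121 had 4. Litters 112 and 116 were hybridised on one slide and litter 121 on the other.

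BMP ligands bind pairs of type I and type II receptor kinases at the cell surface, and the activated receptors phosphorylate SMAD1, SMAD5 and SMAD9, which enter the nucleus with SMAD4. Gremlin-1 and noggin, the products of Grem1 and Nog, bind ligands outside the cell and keep them from the receptors. ID proteins have a helix-loop-helix domain without a DNA-binding region, and they pair with E proteins and hold these away from DNA. In mesenchymal cells BMP signals are known for directing cartilage and bone formation, and the serum in the medium carries BMP activity of its own.

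Values below are log2 ratios of Lats2-/- over Lats2+/+, averaged over the arrays of a litter, so that 1 is a doubling and -1 a halving. Log2 signals are per extract and can be compared between extracts for a probe, but not between probes. A probe entered the test if Lats2-/- or Lats2+/+ cells showed it clearly over background in 2 or 3 extracts, as 22642 probes did. Of the 14 probes, 11 were tested, 2 of 5 for the ligands, 2 of 2 for the antagonists and 7 of 7 for the ID genes. None of the 11 reached an adjusted p under 0.05 in limma, and 0 of the 22642 did (0%). The targeted gene was lower in every litter at the probe nearest its 5′ end, with ratios of -1.33, -1.05 and -0.56 in litters 112, 116 and 121. Its other 3 probes lie toward the 3′ end and read from -0.70 to -0.18 in litters 112 and 116 but from 0.80 to 1.17 in litter 121, and which part of the gene is deleted is not given in the sources used here. The YAP targets Ctgf and Cyr61 were higher in each litter, by 1.18 to 1.67 and by 0.68 to 1.87 on the log2 scale.

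Promoter sequences are shown for the members with the largest ratios, Bmp4 and Grem1, and for both ID genes whose window holds the GC-rich core that SMAD1 and SMAD5 bind. RefSeq windows of 300 bases on GRCm38.p6, from 250 bases before to 50 after the annotated start, were found for 6 of the 10 genes (Bmp4, Bmp6, Grem1, Id2, Id3 and Id4). Each was searched on both strands for GGCGCC, the SMAD core, and for CACGTG, an E-box; both read the same on either strand, and their matches did not overlap. Capitals mark the match, and each sequence reads 5′ to 3′ on the strand of its gene, which is the minus strand for Bmp4 (chr14:46390620-46390919), Grem1 (chr2:113758599-113758898) and Id2 (chr12:25096043-25096342) and the plus strand for Id4 (chr13:48260866-48261165).
Bmp4: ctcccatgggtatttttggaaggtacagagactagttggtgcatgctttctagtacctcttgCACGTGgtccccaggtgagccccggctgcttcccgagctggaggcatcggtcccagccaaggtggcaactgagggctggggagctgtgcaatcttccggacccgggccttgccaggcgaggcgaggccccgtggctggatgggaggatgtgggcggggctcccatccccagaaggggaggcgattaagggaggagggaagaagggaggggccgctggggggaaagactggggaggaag
Grem1: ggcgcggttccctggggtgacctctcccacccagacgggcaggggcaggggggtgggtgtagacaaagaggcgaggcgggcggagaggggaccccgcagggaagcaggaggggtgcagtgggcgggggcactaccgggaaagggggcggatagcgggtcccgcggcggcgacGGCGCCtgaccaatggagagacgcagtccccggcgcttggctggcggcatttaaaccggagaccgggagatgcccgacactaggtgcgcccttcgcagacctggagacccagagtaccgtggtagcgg
Id2: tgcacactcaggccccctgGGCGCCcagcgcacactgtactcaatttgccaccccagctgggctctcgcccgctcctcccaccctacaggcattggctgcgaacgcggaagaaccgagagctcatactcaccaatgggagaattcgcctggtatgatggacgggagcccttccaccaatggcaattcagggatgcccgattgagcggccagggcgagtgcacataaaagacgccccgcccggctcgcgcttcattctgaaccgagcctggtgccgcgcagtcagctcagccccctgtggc
Id4: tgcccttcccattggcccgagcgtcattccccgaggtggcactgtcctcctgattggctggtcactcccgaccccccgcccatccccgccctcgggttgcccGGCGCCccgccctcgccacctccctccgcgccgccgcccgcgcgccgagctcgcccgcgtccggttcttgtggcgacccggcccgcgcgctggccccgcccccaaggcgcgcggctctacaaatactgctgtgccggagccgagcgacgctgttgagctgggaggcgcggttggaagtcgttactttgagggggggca
Bmp4 holds CACGTG, which begins 188 bases before the start, and Bmp6 holds the same letters 127 bases before its start. GGCGCC begins 78 bases before the start in Grem1, 231 bases before it in Id2 and 148 bases before it in Id4. In Id3 neither motif was found. Among all 32851 windows of that length, 11.9% hold GGCGCC and 7.15% hold CACGTG. The windows of the members are rich in G and C, from 60% in Id3 to 73.3% in Id4. These contents exceed those of 70.5% (Id3) and 94.5% (Id4) of all windows. The 11.9% covers windows of every G and C content, so it is no matched background for a motif made of G and C alone.

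Of the ligands, Bmp4 had the largest ratios, and it went in opposite directions in different litters. Bmp4, a ligand made by many mesenchymal cells, was read by a probe (chr14:45306004-45306063, minus strand, mm8) that is printed as 10 repeat spots on each array and was well above background on all 8 arrays in both genotypes. Its ratio was 2.64 for litter 112, turned to -0.76 for litter 116 and was 2.52 for litter 121, which is 6.21-fold higher, 1.69-fold lower and 5.75-fold higher. These litter values were tightly measured. Arrays of a litter differed by at most 0.07 in their ratio, and the 10 spots of an array had an SD of 0.03 to 0.16. These are technical spreads of the same extracts and do not measure how far separate cultures of a genotype differ. In litter 112 only 62 of the 22642 tested probes (0.274%) were as far or farther up, in litter 121 this held for 135 (0.596%), and in litter 116 as many as 1312 (5.79%) were as far or farther down.

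Across litters the mean ratio of Bmp4 was 1.47 ± 1.93 (SD, n = 3), which is 2.76-fold, with a 95% interval of -0.82 to 3.75 from limma and an adjusted p of 0.754. Left out in turn, litter 116 gave a mean of 2.58, litter 112 one of 0.88 and litter 121 one of 0.94, and the adjusted p in limma was 0.834, 0.931 and 0.877. The unadjusted p in limma was 0.000377 without litter 116. That fit drops the litter of opposite sign, so its p lends no support to a direction. The extracts show where the differences lay. In Lats2+/+ cells the log2 signals of litters 112, 116 and 121 were 6.83, 10.08 and 9.42. In Lats2-/- cells they were 9.46, 9.33 and 11.94. The wild-type extracts alone covered a 9.56-fold range and the Lats2-/- extracts a 6.12-fold range, the lowest of all was the wild-type clone of litter 112, and the genotypes overlapped.

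**Figure D1:**
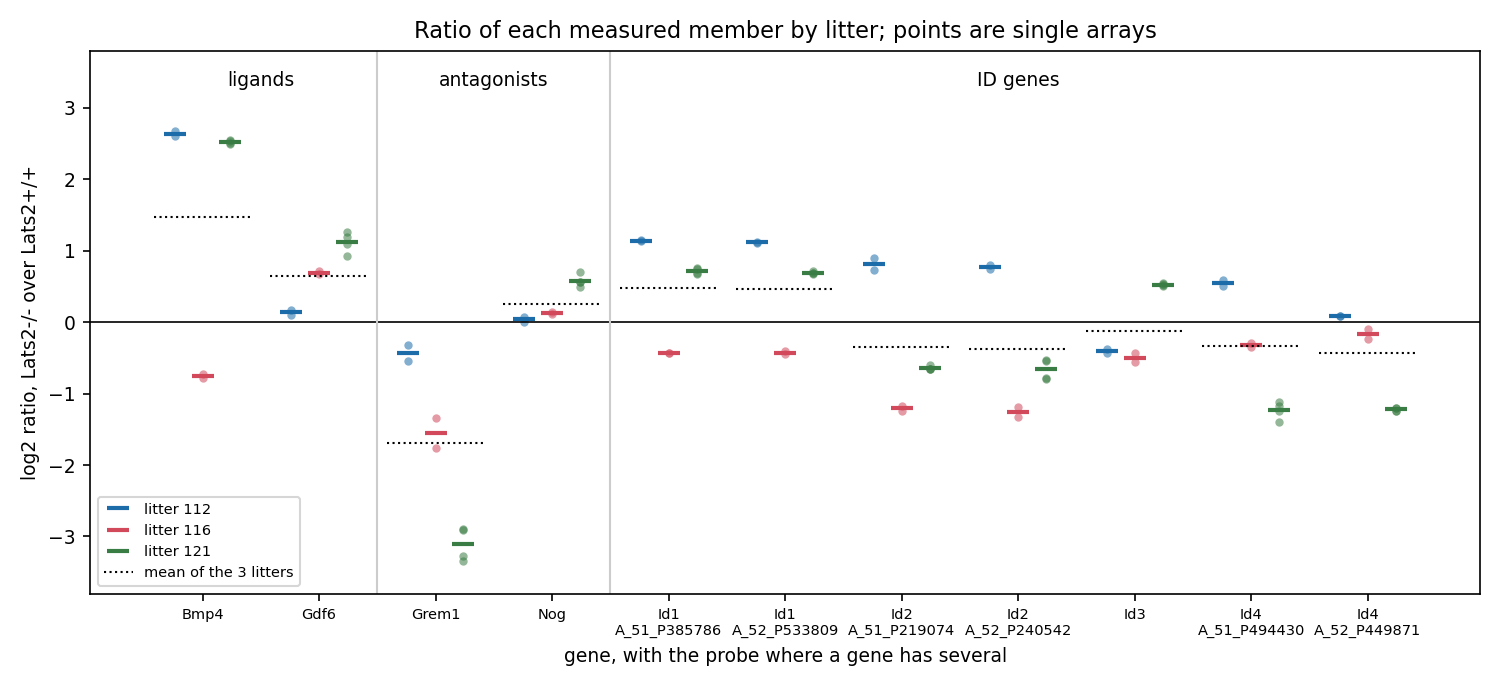
Log2 ratio (vertical axis, Lats2-/- over Lats2+/+) of the 11 tested probes, ordered as ligands, antagonists and ID genes; points are single arrays, coloured bars the mean of each litter and dotted lines the mean of the 3 litters. Arrays of a litter lie close together, while Bmp4 sits at 2.64 and 2.52 in litters 112 and 121 and at -0.76 in litter 116, and Grem1 is below 0 in each litter.

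Gdf6, a ligand known for joint and skeletal patterning, gave dim signals that were higher in Lats2-/- cells. The ratios were 0.14, 0.69 and 1.12 in litters 112, 116 and 121. In litter 112 the probe (chr4:9789396-9789455, plus strand) was above background on no array of either genotype. Both arrays of litter 116 showed it above background in Lats2-/- cells and neither did in Lats2+/+ cells, so that this litter gives only a bound of at least 1.62-fold higher. Litter 121 measured both genotypes on 4 of 4 arrays. The mean was 0.65 ± 0.49 (SD, n = 3), and limma's unadjusted p was 0.0474 (adjusted p = 0.711). Gdf6 was the single tested member probe out of 11 that was higher at an unadjusted p under 0.05, where 3.56% of all tested probes were. It entered the test through its Lats2-/- extracts, since only 1 of the 3 Lats2+/+ extracts was above background, and a probe that enters this way had to differ, so its p lends no support to the direction. Leaving out litter 112, 116 or 121 gave means of 0.91, 0.63 and 0.42, with an unadjusted p in limma of 0.0202, 0.146 and 0.148 (adjusted p = 0.890, 0.834 and 0.768). The value also depended on how dim signals were treated: 0.98 with a smaller normexp offset and 1.66 with the signals that Feature Extraction had processed.

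Bmp2 and Bmp6 gave no ratio that could be tested. Bmp2, a ligand that induces bone, was well above background on none of the 8 arrays in either genotype (chr2:133252686-133252745, plus strand). Its repeat spots averaged 47.3 to 70.2 intensity units per array, where the local background of the ligand spots that were not measured was 30.0 to 41.0. Bmp6, another bone-inducing ligand, has 2 probes. A_52_P468441 was above background on no array. A_52_P413646 passed background in Lats2+/+ cells on 5 of 8 arrays, 4 of them from litter 121, and in Lats2-/- cells on 2 of 8, and was not tested. For Bmp2 the files hold only a level near background. Bmp6 was above background on every array of an extract only in the Lats2+/+ cells of litter 121, with a log2 signal of 6.53. No ratio is given for either gene.

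The antagonist Grem1 was lower in the Lats2-/- clone of every litter, by amounts that differed widely. Gremlin-1 binds BMP2, BMP4 and BMP7 outside the cell and is made by fibroblasts. Its probe (chr2:113549909-113549968, minus strand) gave ratios of -0.43, -1.56 and -3.11 in litters 112, 116 and 121, that is 1.35-, 2.94- and 8.63-fold lower. Arrays of a litter differed by up to 0.45. In Lats2+/+ cells the log2 signals were 14.67, 15.90 and 16.06 for litters 112, 116 and 121, and in Lats2-/- cells they were 14.24, 14.34 and 12.95. Every Lats2-/- extract lay below every Lats2+/+ extract. Over all tested probes, 3.03% had extracts that did not overlap with Lats2-/- lower, and 14.8% were lower in all 3 litters.

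Grem1 averaged -1.70 ± 1.34 (SD, n = 3), which is 3.25-fold lower, with a 95% interval of -3.31 to -0.09 and an unadjusted p of 0.0429 in limma (adjusted p = 0.711). It was the one member probe of 11 with an unadjusted p under 0.05 in the lower direction, against 3.29% of all tested probes, and the one that also reached a 2-fold mean change, against 0.835%. Litter 121 set much of the size: without it, and so within the slide of litters 112 and 116, the mean was -0.99 and the adjusted p in limma 0.734, with an unadjusted p of 0.0658. The mean was -2.33 without litter 112 and -1.77 without litter 116, where the unadjusted p in limma was 0.120 (adjusted p = 0.834). No spot of the probe was marked as saturated, with raw intensities of up to 105660 in Lats2+/+ cells.

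Nog gave a small positive ratio in each litter. Noggin binds several BMPs with high affinity. The ratios were 0.04, 0.13 and 0.58 in litters 112, 116 and 121 (chr11:89117625-89117684, minus strand). The mean was 0.25 ± 0.29 (SD, n = 3), with an adjusted p of 0.761 in limma and a 95% interval of -0.18 to 0.68. Without litter 121 the mean was 0.086. Wild-type extracts read 7.30, 7.31 and 7.27 and Lats2-/- extracts 7.34, 7.44 and 7.85, so the genotypes did not overlap although they differed by little, which held with Lats2-/- higher for 3.1% of tested probes. A ratio above 0 in all 3 litters, as Nog had, was seen in 15% of tested probes.

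**Figure D2:**
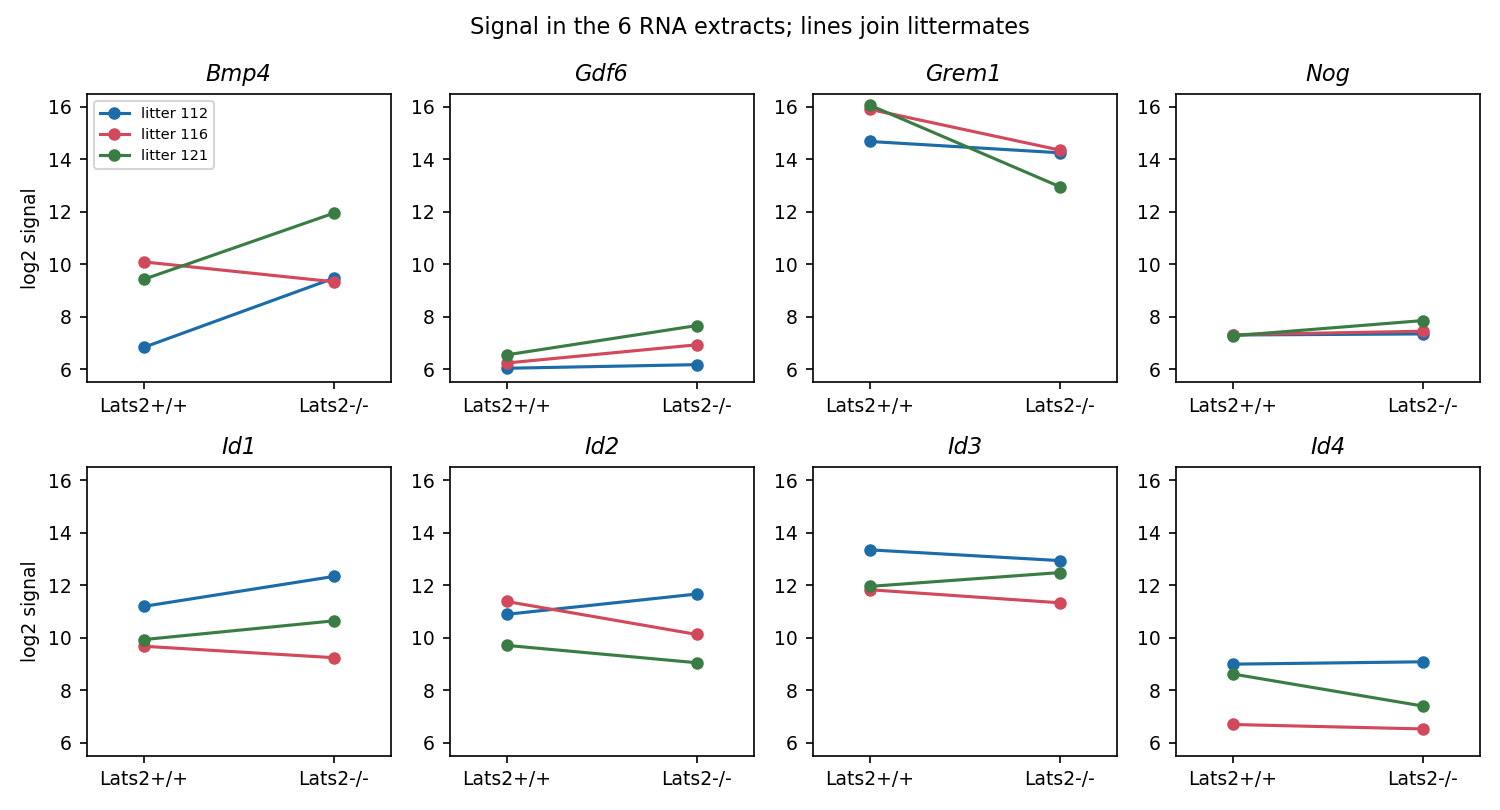
Log2 signal (vertical axis) of the 8 measured genes, each by its probe with the highest mean signal, in the Lats2+/+ and Lats2-/- extract of each litter; lines join littermates. For Bmp4 and the ID genes the extracts of the genotypes overlap, whereas Grem1 falls in each litter, from 14.67 to 14.24 in litter 112 and from 16.06 to 12.95 in litter 121.

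The ID genes did not move together. Their mean ratios were 0.47 for Id1, -0.38 for Id2, -0.13 for Id3 and -0.43 for Id4, a median of -0.25 beside 0.01 over the 15145 genes with a tested probe, and none of the 7 probes had an unadjusted p under 0.05 in limma. All 4 genes were lower in litter 116, 3 of 4 were higher in litter 112, and 2 of 4 were higher in litter 121. The median over the ID genes was accordingly 0.43, -0.47 and -0.067 for litters 112, 116 and 121, where the medians over all genes were 0.015, 0.0052 and 0.0049.

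Id1, often the most responsive gene to BMP signals in cultured cells, had the same sign as Bmp4 in each litter. Its brighter probe (chr2:152428741-152428800, plus strand) gave 1.14, -0.44 and 0.71 for the litters in the same order. The overlapping second probe gave 1.12, -0.43 and 0.69, and as it shares most of its target with the first it is no independent measurement. Log2 signals were 11.19, 9.67 and 9.92 in Lats2+/+ cells and 12.33, 9.23 and 10.64 in Lats2-/- cells. The mean was 0.47 ± 0.82 (SD, n = 3), with an adjusted p of 0.796 in limma and a 95% interval of -0.52 to 1.47. It was 0.14 without litter 112 and 0.93 without litter 116, where the unadjusted p in limma was 0.0155 (adjusted p = 0.834). Litter 116 was the one of opposite sign, so that p lends no support to a direction. With 3 litters the shared sign of Id1 and Bmp4 is a description of these cultures.

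Id2 followed another pattern. Its probe with the highest signal (chr12:25683119-25683178, minus strand) gave 0.77, -1.26 and -0.66 in litters 112, 116 and 121, and its second probe 0.81, -1.20 and -0.64, so that probes at separate positions differed by at most 0.05. In litter 121 Id2 was therefore lower while Id1 was higher. Signals were 10.89, 11.38 and 9.70 in Lats2+/+ extracts and 11.66, 10.12 and 9.04 in Lats2-/- extracts. The mean was -0.38 ± 1.04 (SD, n = 3) with an adjusted p of 0.870 in limma. It turned to 0.056 without litter 116 and was -0.24 without litter 121. Without litter 112, the litter of opposite sign, it was -0.96, with an unadjusted p in limma of 0.0275 (adjusted p = 0.890). That p lends no support to a direction.

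Id3 had one probe (chr4:135416236-135416410, plus strand, as the file gives it), with ratios of -0.41, -0.50 and 0.53. Its signals were 13.34, 11.82 and 11.95 in Lats2+/+ cells and 12.93, 11.33 and 12.48 in Lats2-/- cells. The mean of -0.13 ± 0.57 (SD, n = 3) had an adjusted p of 0.935 in limma. It was 0.015 without litter 112, 0.059 without litter 116 and -0.45 without litter 121, so its direction was not settled by these litters.

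Id4 was lower mainly in litter 121. This member of the family is best known from the nervous system and the mammary gland. The probe with the highest signal (chr13:48275236-48275295, plus strand) gave 0.09, -0.17 and -1.22 in litters 112, 116 and 121, and the other gave 0.55, -0.32 and -1.24. In litter 112 the probes differed by 0.46, more than the arrays of that litter did for either one. Signals at the first probe were 8.99, 6.69 and 8.61 in Lats2+/+ extracts and 9.08, 6.52 and 7.39 in Lats2-/- extracts. The mean was -0.43 ± 0.69 (SD, n = 3), with an adjusted p of 0.785 in limma, and the mean was -0.70 without litter 112 and -0.04 without litter 121.

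Set side by side by litter, litter 112 combined higher Bmp4 with higher Id1 and Id2, lower Id3 and Grem1 (-0.41 and -0.43), Id4 at 0.09 and Nog at 0.04, with Gdf6 not above background. Litter 116 combined lower Bmp4 with lower Grem1 and lower values for all 4 ID genes, while Gdf6 was at least 1.62-fold higher and Nog was at 0.13. Litter 121 combined higher Bmp4, Gdf6 and Nog with the lowest Grem1 ratio, higher Id1 and Id3, and lower Id2 and Id4. For scale, 3.77% of tested probes differed by at least 2-fold in litter 112, and the shares in litters 116 and 121 were 7.71% and 6.09%. No test of ligands against targets was run.

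Other ligands of the family gave little to measure. Of 12 listed (Bmp3, Bmp5, Bmp7, Bmp8a, Bmp8b, Bmp10, Bmp15, Gdf2, Gdf3, Gdf5, Gdf7 and Gdf10), 3 were tested and 0 had an unadjusted p under 0.05. Bmp3 was measured in both genotypes on every array of litter 116 alone, with a ratio of 0.86. In litter 112 it was above background in Lats2+/+ cells only, which gives a bound of at least 1.76-fold lower, and in litter 121 (-0.78) the Lats2-/- extract passed background on 1 of 4 arrays. Gdf5 and Gdf7 stayed between -0.09 and 0.06. Bmp7 and Bmp8a were above background in a single extract, the Lats2-/- clone of litter 121 (on its 4 repeat arrays), and on no array of the others.

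The mean ratios of the tested receptors and co-receptors lay between -0.045 and 0.28. Of 11 receptors and co-receptors, 9 were tested and 8 had a mean above 0, as did 7995 of the 15145 genes overall. At an unadjusted p under 0.05 there were 0, where 4.09% of genes were higher and 3.41% lower at that level. The median was 0.14. Among those 8, Bmpr1b and Acvr2b were above background in more Lats2-/- than Lats2+/+ extracts, and they entered the test through the former, so the count is no support for a direction. Bmpr1a, a type I receptor, gave 0.24, 0.30 and -0.10, and Acvr1, another type I receptor, gave -0.03, 0.19 and 0.68. The type II receptor Bmpr2 gave 0.10, 0.47 and 0.20. Among the tested receptors the widest litter values belonged to the co-receptor Rgma, with 0.50, 1.09 and -1.72.

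Among the SMADs and their ligases, the largest means belonged to the inhibitory Smad7 and the ligase Smurf2. Smad1 gave -0.23, -0.21 and -0.23 in litters 112, 116 and 121, with a mean of -0.22 ± 0.01 (SD, n = 3) and an adjusted p of 0.721 in limma, but its second, dimmer probe averaged -0.05. Smad5 averaged -0.05 ± 0.04 (SD, n = 3), and Smad4, the shared partner, gave 0.03, 0.59 and 0.21, a mean of 0.28 ± 0.29 (SD, n = 3). Smad7, an inhibitory SMAD that blocks receptors and is itself induced by BMP and TGF-beta signals, gave 0.63, 1.08 and 0.34. Its mean was 0.68 ± 0.38 (SD, n = 3), and limma's unadjusted p was 0.0221 (adjusted p = 0.711). Smad6, the inhibitor more particular to BMP signals, gave -0.39, -0.37 and 1.31, which is higher in litter 121 alone, with a mean of 0.18 ± 0.98 (SD, n = 3). Smurf2, a ubiquitin ligase that marks receptors and SMADs for degradation, gave -0.43, -1.34 and -0.82, a mean of -0.86 ± 0.46 (SD, n = 3) with limma's unadjusted p at 0.0165 (adjusted p = 0.711). The other 2 Smurf2 probes averaged -0.64 and -0.61, with an unadjusted p in limma of 0.0532 and 0.0353. Of the 8 genes in this list 1 was higher and 1 lower at an unadjusted p under 0.05 in limma. Over the 15145 genes with a tested probe, 4.09% were higher and 3.41% lower at that level. The median of the list was -0.01, beside 0.01 over those genes.

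Outside the cell, the largest ratio among the other BMP modulators described here came from litter 121. Sostdc1, a secreted antagonist of BMP and Wnt signals, was above background in litter 121 alone, with a ratio of 7.64 (7.21 to 8.03 over 4 arrays). Its log2 signal there was 14.12 in Lats2-/- cells and 6.48 in Lats2+/+ cells, a 199.8-fold difference between a single pair of clones, and it was not tested because both other litters were at background.

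Fst, whose product follistatin binds activins and some BMPs, gave 0.42, -0.81 and 1.38. Its relative Fstl3 was higher in each litter, at 0.36, 0.57 and 0.82, for a mean of 0.59 ± 0.23 (SD, n = 3), and limma's unadjusted p was 0.0134 (adjusted p = 0.711). Litter 116 had the highest ratios of Bmper, a secreted BMP-binding protein, at -1.37, 2.61 and -0.34, and of the antagonist Chrdl1, at -0.05, 2.06 and 0.32. Bambi, a decoy receptor and common BMP target, gave -0.04, -0.28 and -2.12 at its tested probe. Of 16 modulators 12 were tested, 8 had a mean above 0 and 4 below, beside 7995 above 0 among all 15145 genes, and the median was 0.12. The response genes, which include Smad6, Smad7 and Bambi again, split as well: of 11 listed 8 were tested, 6 had a mean above 0 (against the same 7995 of 15145), and the median was 0.22. Msx1, a homeobox target of BMP signals, gave -0.49, -1.97 and 3.21 in litters 112, 116 and 121, and its relative Msx2 gave -0.58, 0.22 and -2.01.

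**Figure D3:**
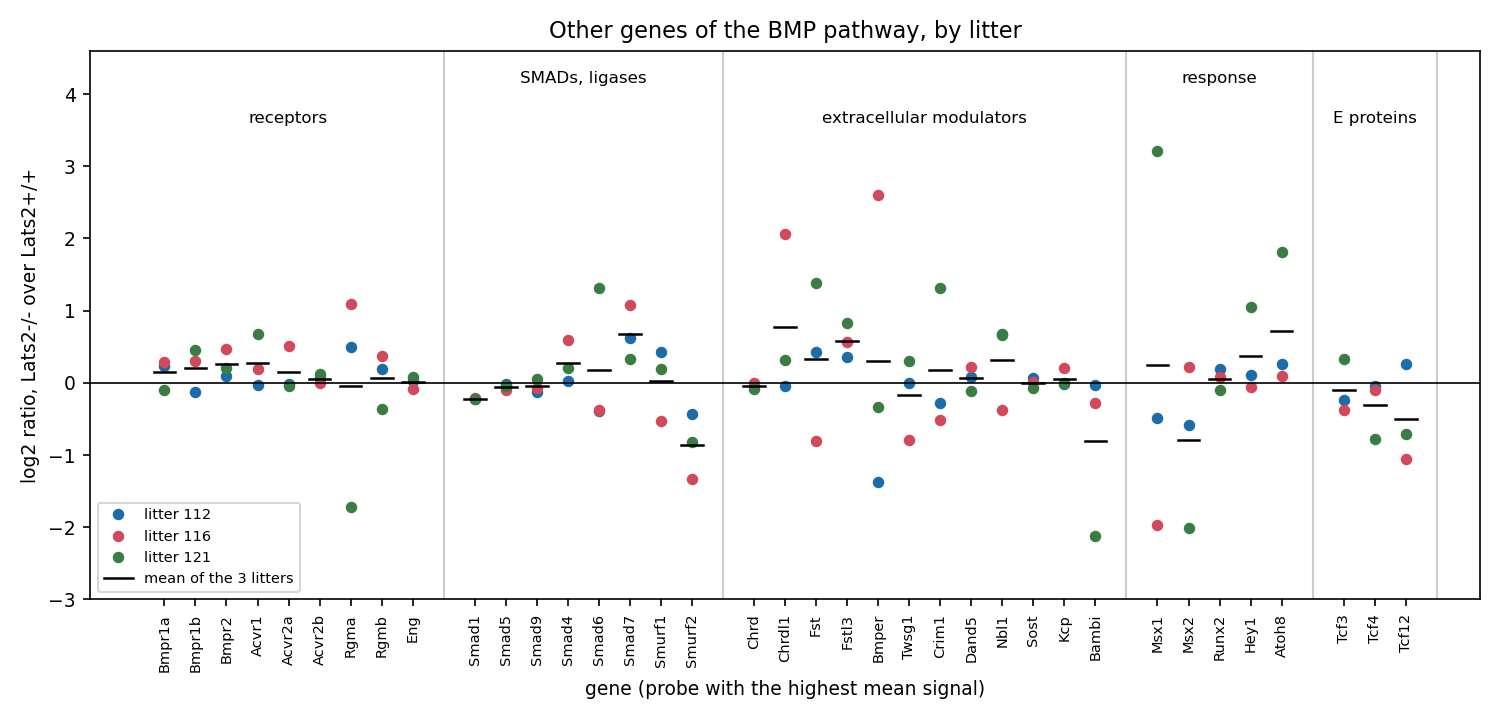
Log2 ratio (vertical axis, Lats2-/- over Lats2+/+) of the tested receptors, SMADs and SMAD ligases, extracellular modulators, response genes and E proteins, by litter (points) and mean of the 3 litters (bars); each gene is shown once. The largest mean among the receptors is 0.28 (Acvr1), and Msx1 reaches 3.21 in litter 121.

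E proteins, the partners that ID proteins hold away from DNA, had means below 0 at their brightest probes. Tcf3, listed on the array under its older name Tcfe2a, gave -0.24, -0.37 and 0.32 in litters 112, 116 and 121. Tcf4 gave -0.05, -0.09 and -0.77, and Tcf12 gave 0.26, -1.05 and -0.71. None of the 3 had an unadjusted p under 0.05 in limma, and the median was -0.31.

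Marker genes of fibroblasts differed between littermates as well, and their values stand beside every ratio above. All 12 fibroblast markers were tested. Their median ratios were 0.11, 1.95 and -0.93 for litters 112, 116 and 121. In limma 1 of the 12 (Prrx1, mean -0.67) had an unadjusted p under 0.05. Over the 15145 genes with a tested probe, 3.41% were lower and 4.09% higher at that level. Single genes moved far: the matrix gene Dcn gave 3.26, 6.22 and -1.94, Col3a1 gave 0.13, 3.70 and -3.42, and the receptor gene Pdgfra gave 0.90, 0.13 and -4.96. The summed log2 signal of the fibroblast list was 17.83 to 18.99 in Lats2-/- extracts and 17.65 to 18.74 in Lats2+/+ extracts.

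Markers of other cells, each read by its brightest probe, were mostly dim. Of 6 endothelial markers 4 (Pecam1, Cdh5, Tie1 and Emcn) were above background on no array. Kdr was above it only in the Lats2-/- extract of litter 121 (at least 1.41-fold higher), and Tek, the one tested, gave ratios of at most 0.16. Of 6 epithelial markers none was tested, and Epcam, Cldn4 and Esrp1 were above background on no array. Cdh1, which encodes E-cadherin, was above background only in the Lats2-/- extract of litter 121 (at least 2.08-fold higher), and Krt8 and Krt18 only in the Lats2+/+ extract of litter 116. Ptprc, which marks blood cells, was likewise above background on no array, while 4 of 6 macrophage and blood markers were tested. In that list Lyz2, the lysozyme gene of macrophages, gave 0.05, 0.95 and 3.40, a mean of 1.47 ± 1.73 (SD, n = 3) with an adjusted p of 0.740 in limma. Cd14, a receptor for bacterial lipopolysaccharide, gave -0.60, -1.64 and -0.74, and limma's unadjusted p was 0.0192 (adjusted p = 0.711). The muscle determinants Myog and Myf5 were above background on no array, and Acta1 alone was tested in that list of 6, with -0.47, 3.48 and 0.35. Of the cartilage and bone list 4 of 6 were tested, 2 with a mean above 0 and 2 below. Sox9 gave 0.71, 1.41 and -3.71, Bglap gave -0.05, 0.0054 and 1.16, and Acan averaged -0.0044. The tested probes of Col2a1, which overlap, disagreed: the brighter gave 0.29, 2.53 and -0.40 and the other 0.64, -0.01 and 2.84, so no direction is given for it. Of the neural list 5 of 6 were tested, where Nes gave -0.36, 0.77 and 4.10. Summed log2 signals ranged in Lats2-/- and Lats2+/+ extracts from 8.67 to 8.85 and 8.66 to 8.72 for the endothelial list, and from 8.63 to 8.88 and 8.61 to 8.83 for the epithelial list. They ranged from 9.59 to 11.92 and 9.73 to 11.14 for the macrophage and blood list, and from 11.96 to 13.38 and 9.52 to 13.04 for the muscle list. The cartilage and bone list ranged from 11.03 to 11.35 and 10.02 to 11.93, and the neural list from 10.07 to 12.94 and 9.94 to 11.10. The part of these markers in the BMP gene ratios was not tested, and in bulk RNA a smaller share of cells that express a gene and less of its RNA per cell cannot be told apart.

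**Figure D4:**
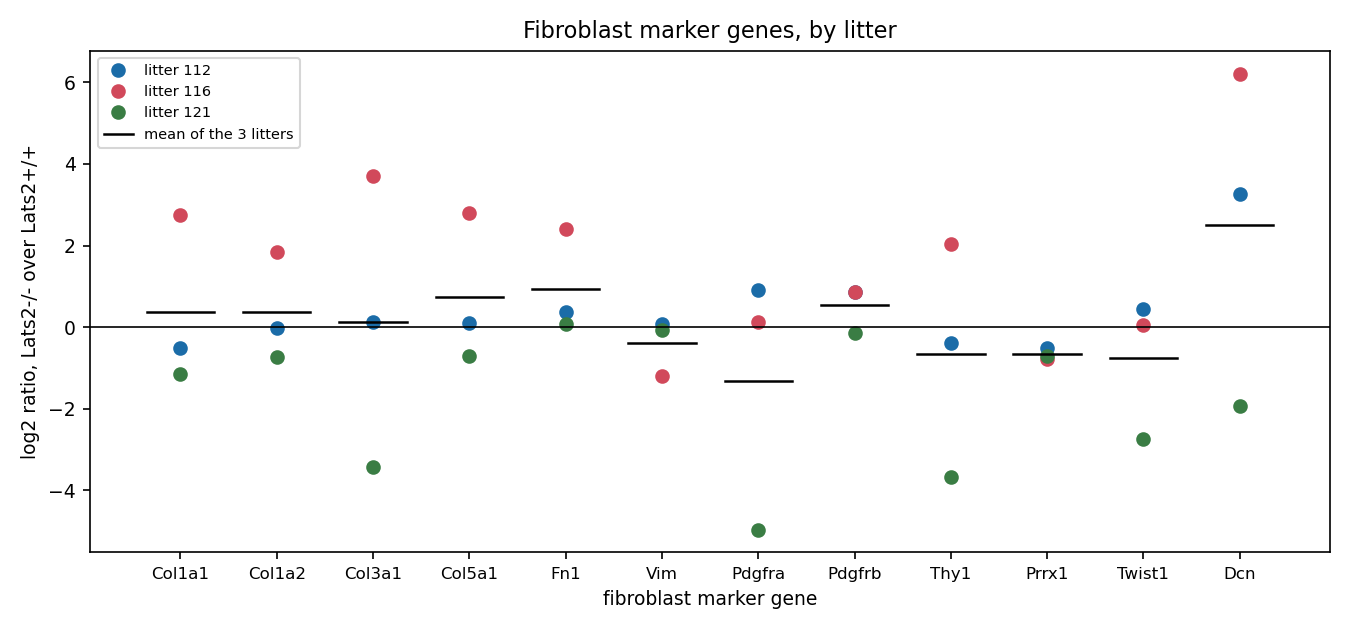
Log2 ratio (vertical axis, Lats2-/- over Lats2+/+) of 12 fibroblast marker genes in each litter (points) with the mean of the 3 litters (bars). Most matrix genes are above 0 in litter 116 and below 0 in litter 121, with Dcn at 6.22 and -1.94.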

How the data were processed

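The authors hybridised whole mouse genome arrays of design 014868 in 2 colours and extracted them with Agilent Feature Extraction (10.5.1.1 in the submitters' processing notes, 10.7.3.1 in the headers). As deposited, the scanner files hold spot intensity and local background per channel, not normalized, log10 ratios of red over green after background subtraction and dye normalization, and probe positions on mm8. The deposited value table of log10 ratios differs from the files by at most 0.005 once turned to Lats2-/- over Lats2+/+.

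Intensities were corrected with normexp (offset 50) and normalized by loess within arrays in limma 3.58.1 (R 4.3.3), without control spots and 860 outlier spots of 8 arrays. Repeat spots and then arrays of a litter were averaged. The litter pairs the genotypes, since both extracts share each array. The 3 litter ratios were tested against 0 with lmFit and eBayes, two-sided, with Benjamini-Hochberg adjustment over 22642 probes, after a check on simulated data, and the number of litters limits precision. Extract signals followed Aquantile scaling. For a bound, the brighter genotype was set against the higher of the lowest signal above background and the probe's own. Each gene is given by the probe with the highest mean signal. Named were all members, the main receptors, SMADs, modulators and E proteins, and listed genes with a mean of at least 1 on the log2 scale or an unadjusted p under 0.05 at that probe; other genes were named after their values were seen. RefSeq accessions named 24375 of 41174 probes. The members and lists were chosen with earlier results of these data known. One item is not reported here.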

Additional observations from a re-analysis of the deposited data

How the results depend on the processing

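Of 144 values of the member probes under other settings, 139 kept their direction, and none passed the adjusted threshold. The 5 that reversed left out a litter: Id3 ranged from -0.45 to 0.059 and was 0.015 without litter 112, Id2 ranged from -0.96 to 0.056 (second probe -0.92 to 0.084), and the second Id4 probe from -0.78 to 0.11. Ratios of dim probes grew with the signals processed by Feature Extraction, where Gdf6 was 1.66 and Id4 -0.77. Grem1 lay between -2.33 and -0.99, and its unadjusted p was under 0.05 in 9 of 13 settings. Those 9 include the fits below that take arrays of the same extracts as observations (0.00215 and 0.00126 in limma). Above 0.05 for Grem1 were the methods' t-test (0.160) and, in limma, the fit without a filter on dim probes (0.0624). The limma fits without litter 116 (0.120) and without litter 121 (0.0658) were above it too. Smad7, Smurf2 and Fstl3, run under the same settings after the data were seen, kept their sign in each. Their unadjusted p in limma, under 0.05 with all litters, was 0.0798 and 0.0538 for Smad7 without litters 112 and 116, 0.0579 for Smurf2 without litter 121, and 0.0526 and 0.0586 for Fstl3 without litters 116 and 121. The methods' t-test gave 0.0882 for Smad7 and 0.0813 for Smurf2, both exceeding 0.05, and the unpaired fit gave 0.222 for Smad7. The count of probes with a 2-fold change and unadjusted p under 0.05 was 189. It was 305 with a normexp offset of 16, 551 with processed signals, 545 with the deposited value table, 71 with the methods' t-test, 112 with the extracts unpaired (no replicate block). Leaving out 1 litter gave 260 to 373. Treating arrays as observations with litter as a random block gave 414, and 399 with a dye term, with 341 and 203 probes past the adjusted threshold against 0. These last fits take arrays of the same extracts as observations. The slide could not be fitted as a random block with 3 litter ratios. The number of litters and, for Gdf6, Bmp2 and Bmp6, signal over background limit what can be read.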
